A study of Drosophila melanogaster with 9 samples.

Results

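Sets of white prepupal fat body libraries that differ in their level of Mitf were compared across all measured genes. The libraries whose value columns are named WP-mitf, 3 in number, were set against the 3 whose value columns are named WP-LacZ. Members were the genes that reached 1 normalised count in no fewer than 3 of the study's 9 libraries, 10139 of 10242. Every difference is WP-mitf minus WP-LacZ, on the scale of log2(normalised read count + 1).

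Names of the groups follow the value columns because the other labels disagree with them. The libraries with WP-mitf columns carry titles that read WP_LacZ, and the libraries with WP-LacZ columns carry titles that read WP_mitf. The genotype label gives UAS-Mitf/+; Lsp2-GAL4/+ to all 6 prepupa libraries and so does not separate them. It gives UAS-LacZ/+; Lsp2-GAL4/+ to the 3 larval libraries, named e3IL-LacZ in title and column, whose values are set beside the others as context only. Lsp2-GAL4 is a transgene in which a storage protein promoter drives the yeast activator GAL4 in the late larval fat body, and GAL4 then switches on the UAS transgene. LacZ codes for a bacterial enzyme used as an inert control. Each library pooled the fat bodies of 5 animals of Drosophila melanogaster, raised from eggs kept for 21 h at 21 °C and then at 25 °C.

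Mitf is the fly member of the MiT/TFE family of basic helix-loop-helix leucine zipper factors, which in mammals includes TFEB. TOR kinase on the lysosome surface holds such factors in the cytoplasm in fed cells, and on starvation they enter the nucleus and bind genes of the V-ATPase, lysosome and autophagy. The fat body is the fly's liver and adipose tissue in one. It secretes storage proteins through the last larval stage, and at puparium formation takes them up again, acidifies them in lysosomes and remodels its cells under the steroid hormone ecdysone.

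Normalised read counts summed to 17195757 to 18187221 in the WP-mitf libraries and 23607147 to 24354238 in the WP-LacZ libraries. The most frequent value under 1.4, taken as the worth of 1 read, was 0.75 to 0.88 in the WP-mitf libraries and 0.91 to 1.28 in the WP-LacZ libraries. On that basis, in units of 1000000 reads, the summed counts stand for 19.5 to 24.2 in the WP-mitf libraries and 18.4 to 26.3 in the WP-LacZ libraries, so total read depth overlapped. The worth of 1 read did not overlap. The 6 storage and fat body genes described below held 42.1% of a WP-LacZ library and 7.38% of a WP-mitf library. Fewer reads were thus left for all other genes in the WP-LacZ libraries. Genes listed at 0 numbered 202 to 253 in a WP-mitf library and 1001 to 1111 in a WP-LacZ library. What part the reads left for other genes have in this was not tested. Labels do not say whether replicates came from separate crosses or days, and p-values then measure a spread that may be technical.

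**Figure D1:**
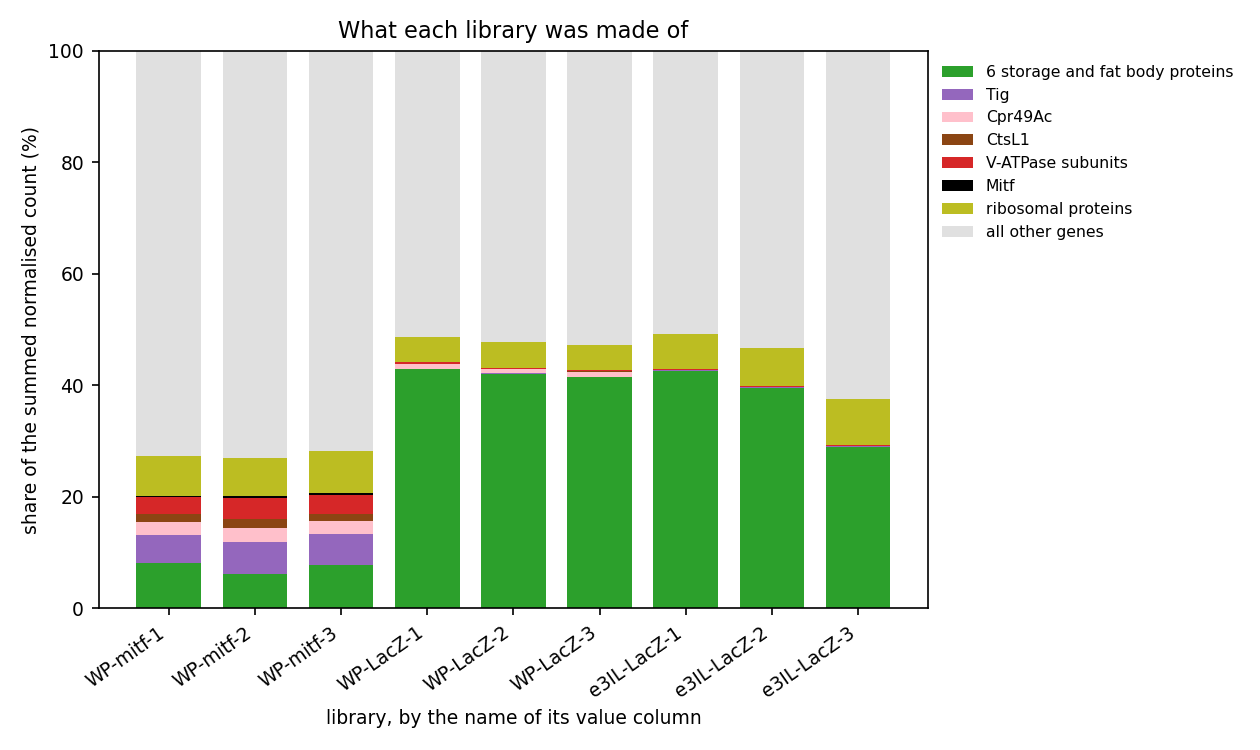
Stacked bars give the share of the summed normalised count in each of the 9 libraries, in percent, for 6 storage and fat body proteins, Tig, Cpr49Ac, CtsL1, the V-ATPase, Mitf, ribosomal proteins and all other genes. The 6 storage and fat body proteins held 6.27% to 8.16% of each WP-mitf library, against 41.4% to 42.8% of each WP-LacZ library.

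The libraries differed in make-up. An equal share of the summed count, 50%, was held by 205, 198 and 193 genes in the WP-mitf libraries, against 13, 14 and 15 genes in the WP-LacZ libraries. Together the larval storage protein genes Lsp1alpha, Lsp1beta, Lsp1gamma and Lsp2, the gene Fbp1 for their receptor, and the fat body gene Fbp2 held 7.38% ± 0.989 of a WP-mitf library and 42.1% ± 0.714 of a WP-LacZ library (SD, n = 3 each). V-ATPase transcripts held 3.48% ± 0.322 of a WP-mitf library and 0.176% ± 0.00726 of a WP-LacZ library (SD, n = 3 each). Neither share overlapped between groups, and the two-sided exact permutation test gave its smallest possible p for 3 libraries against 3, 0.1, for each.

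Mitf (FBgn0263112, chromosome 4, 1198852 to 1224467, plus strand, BDGP6), by whose level the groups were set apart, had counts of 35204, 68535 and 45647 in the WP-mitf libraries, against 347, 370.4 and 407 in the WP-LacZ libraries. The larvae, at 378, 385 and 411, stood with the WP-LacZ libraries. WP-mitf library 2 was the highest of its group in Mitf. A per-gene table does not tell transgene reads from those of the native gene.

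Most of the transcriptome differed between the groups. Of the 10139 genes, 72.7% were called at an adjusted p under 0.05, 41.1% as higher and 31.6% as lower in the WP-mitf libraries, and the groups did not overlap for 76.1%. The counts were 4166 higher and 3200 lower, or 4939 higher and 2334 lower with library totals as the scale. A filter of 10 counts in 3 libraries left 8599 genes, 3581 higher and 3141 lower, so part of the lean upward lay in genes with few counts. The median log2 difference over all genes was 0.22, and 5% of genes lay below -2.72 and 5% above 4.81. Large differences were mostly upward. Among called genes, 819 were higher and 180 lower by at least 4 on the log2 scale, and 31 were higher and 2 lower by at least 10. Genes listed at 0 in all 3 WP-LacZ libraries numbered 500, of which 31 had at least 100 counts in every WP-mitf library. In the other direction, 34 genes were listed at 0 in all 3 WP-mitf libraries and 1 of these had at least 100 counts in every WP-LacZ library. Fewer reads were left for such genes in the WP-LacZ libraries, and their part in these counts was not tested. Against so wide a background, the count for any gene group below is read beside 41.1% and 31.6%, and a list that went both ways in shares near these shows what genes at large showed. For every called gene whose log2 difference or counts are given below, apart from the Cecropins, the 3 WP-mitf libraries all lay on one side of the 3 WP-LacZ libraries. For genes picked by rule from the lists or as largest rises and falls, this was a condition of being picked.

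**Figure D2:**
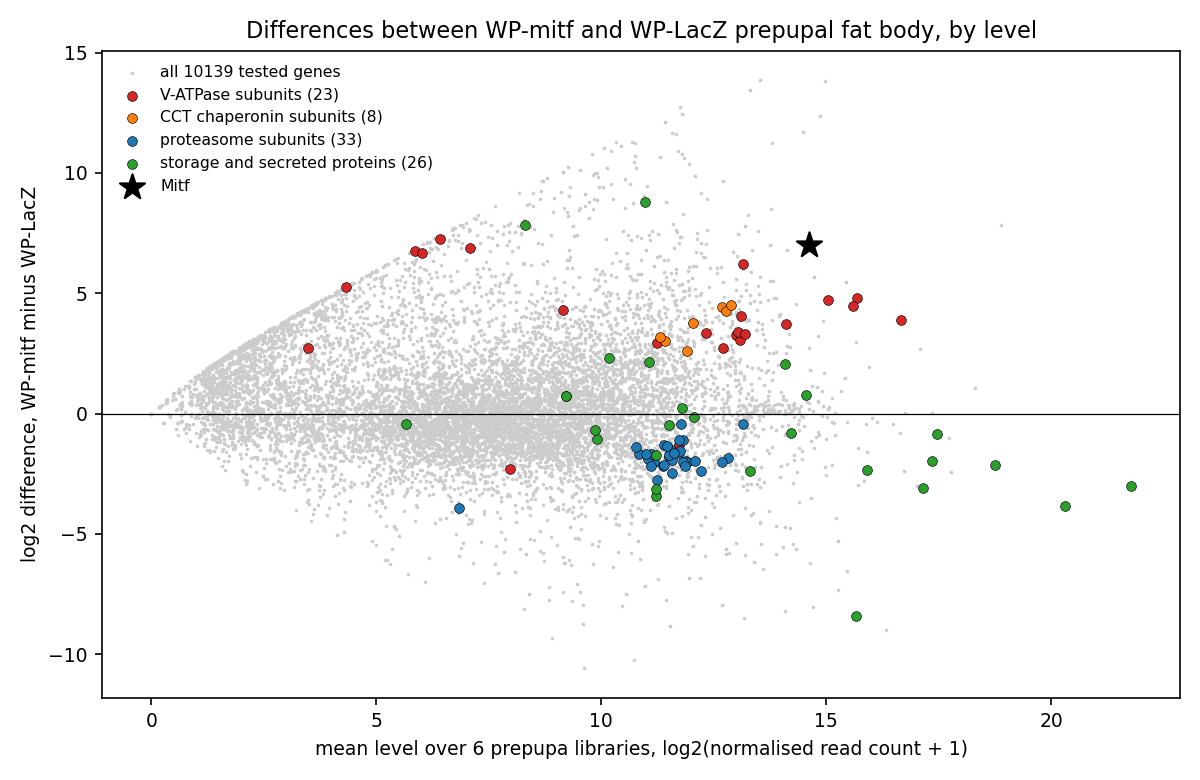
Each dot is 1 of the 10139 tested genes, with its mean level over the 6 prepupa libraries on the x axis, as log2(normalised read count + 1), and its log2 difference, WP-mitf minus WP-LacZ, on the y axis. V-ATPase and CCT chaperonin subunits lie mostly above 0 and proteasome subunits and most storage proteins below it.

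The V-ATPase pumps protons into lysosomes and other acidic compartments and has a cytosolic V1 sector that splits ATP and a membrane V0 sector that carries the protons. All 10 tested V1 genes were higher in the WP-mitf libraries, with a median log2 difference of 4.39. Vha68-2 (FBgn0263598, chromosome 2L, 12974322 to 12978607, plus strand), a form of the catalytic A subunit, had counts of 88148, 119760 and 98751 in the WP-mitf libraries, against 3849, 3386 and 3619 in the WP-LacZ libraries, a difference of 4.81 ± 0.12. Larvae had 2990, 3049 and 3246 counts, near the WP-LacZ libraries. Vha55, the B subunit that alternates with A in the ring, had 87870, 98151 and 97625 in the WP-mitf libraries, against 4703, 3877 and 4372 in the WP-LacZ libraries, and differed by 4.46 ± 0.10. Vha26, the E subunit of the stalk, differed by 4.72 ± 0.09, and Vha36-1, a D subunit of the rotor, by 4.07 ± 0.11. No WP-mitf library overlapped a WP-LacZ library for any V1 gene. Some V1 forms had almost no counts in the other libraries. Vha68-3, a further A subunit form, had 72.6, 154 and 114 counts in the WP-mitf libraries and was listed at 0 in all WP-LacZ libraries and all larvae. The 3 Vha68 genes are similar in sequence, so the split of reads between them is uncertain.

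Of the 13 tested genes of the V0 sector and its accessory proteins, 11 were higher and 2 lower, with a median of 3.40. Vha100-5, one of several forms of the large a subunit, had 125, 118 and 138 in the WP-mitf libraries, against 0.915, 0 and 0 in the WP-LacZ libraries. The a subunit forms did not move together, since Vha100-1 had 2337, 1602 and 1977 in the WP-mitf libraries, against 4899, 4366 and 5031 in the WP-LacZ libraries, a difference of -1.29 ± 0.15. VhaM9.7-c, a form of the small e subunit, was also lower, at 77.3, 98.9 and 78.1 counts in the WP-mitf libraries against 436, 422 and 392 in the WP-LacZ libraries, while its relative VhaM9.7-b was higher by 3.37 ± 0.08. The accessory proteins VhaAC45 and ATP6AP2 were higher by 3.74 ± 0.09 and 3.30 ± 0.08.

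V-ATPase genes are also expressed strongly in the Malpighian tubule, the renal organ, and its markers moved in the same direction. Of 15 tubule markers 11 were called higher and 0 lower, with a median of 3.10, and their summed count was 31255 to 32184 in the WP-mitf libraries, against 5212 to 5692 in the WP-LacZ libraries and 6577 to 7626 in the larvae. Nha2, a proton exchanger, had 4258, 3783 and 4403 in the WP-mitf libraries, against 5.61, 4.24 and 4.98 in the WP-LacZ libraries. The receptor markers CapaR and Lkr were near 0 in both groups, CapaR at 10.4, 10.6 and 5.23 counts in the WP-mitf libraries and 0 in the WP-LacZ libraries, and Lkr at 3.99, 9.71 and 5.23 in the WP-mitf libraries against 0, 1.27 and 0 in the WP-LacZ libraries. Of 16 gut markers 11 were higher and 2 lower, with summed counts of 7672 to 10694 in the WP-mitf libraries, against 2906 to 3319 in the WP-LacZ libraries. The V-ATPase gene Vha100-4, also counted in the V0 list, is 1 of these 11. The trypsin gene deltaTry, which has near-identical copies beside it, made up most of the WP-mitf sum, at 8183, 5291 and 7130 in the WP-mitf libraries and 0 in the WP-LacZ libraries. What part RNA of either organ has in the V-ATPase result was not tested.

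Markers of other tissues were mixed. Of 15 muscle markers 7 were called higher and 0 lower, summing to 6414 to 7573 in the WP-mitf libraries and 1081 to 1417 in the WP-LacZ libraries, while the myosin heavy chain gene Mhc had 5.63, 5.17 and 8.22 counts in the WP-mitf libraries and 1.84, 5.09 and 1.22 in the WP-LacZ libraries. Of 16 epidermal markers 4 were called higher and 2 lower, and the sum, 11867 to 12579 in the WP-mitf libraries against 1079 to 1113 in the WP-LacZ libraries, was mostly that of ap, a LIM homeodomain factor of wing discs. Of 9 neuronal markers 5 were called higher and 2 lower, summing to 2287 to 3465 in the WP-mitf libraries and 20912 to 21793 in the WP-LacZ libraries, mostly from Syt1. For hemocyte markers 1 of 9 was called higher and 3 lower, with sums of 2055 to 3053 in the WP-mitf libraries and 2997 to 3625 in the WP-LacZ libraries. Of 9 gonad markers 2 were called higher and 3 lower, of 5 ring gland markers 2 and 2, and of 2 salivary gland markers 1 and 0. Of 11 markers of the fat body itself 2 were called higher and 7 lower, with sums of 1147829 to 1584867 in the WP-mitf libraries and 10269668 to 10576460 in the WP-LacZ libraries. Yet srp, the GATA factor that specifies fat body, had 4856, 5036 and 4257 in the WP-mitf libraries, against 4951, 4638 and 4821 in the WP-LacZ libraries, a difference of -0.03 ± 0.09 that was not called. In bulk tissue, fewer cells of a type and less RNA per cell cannot be told apart.

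**Figure D3:**
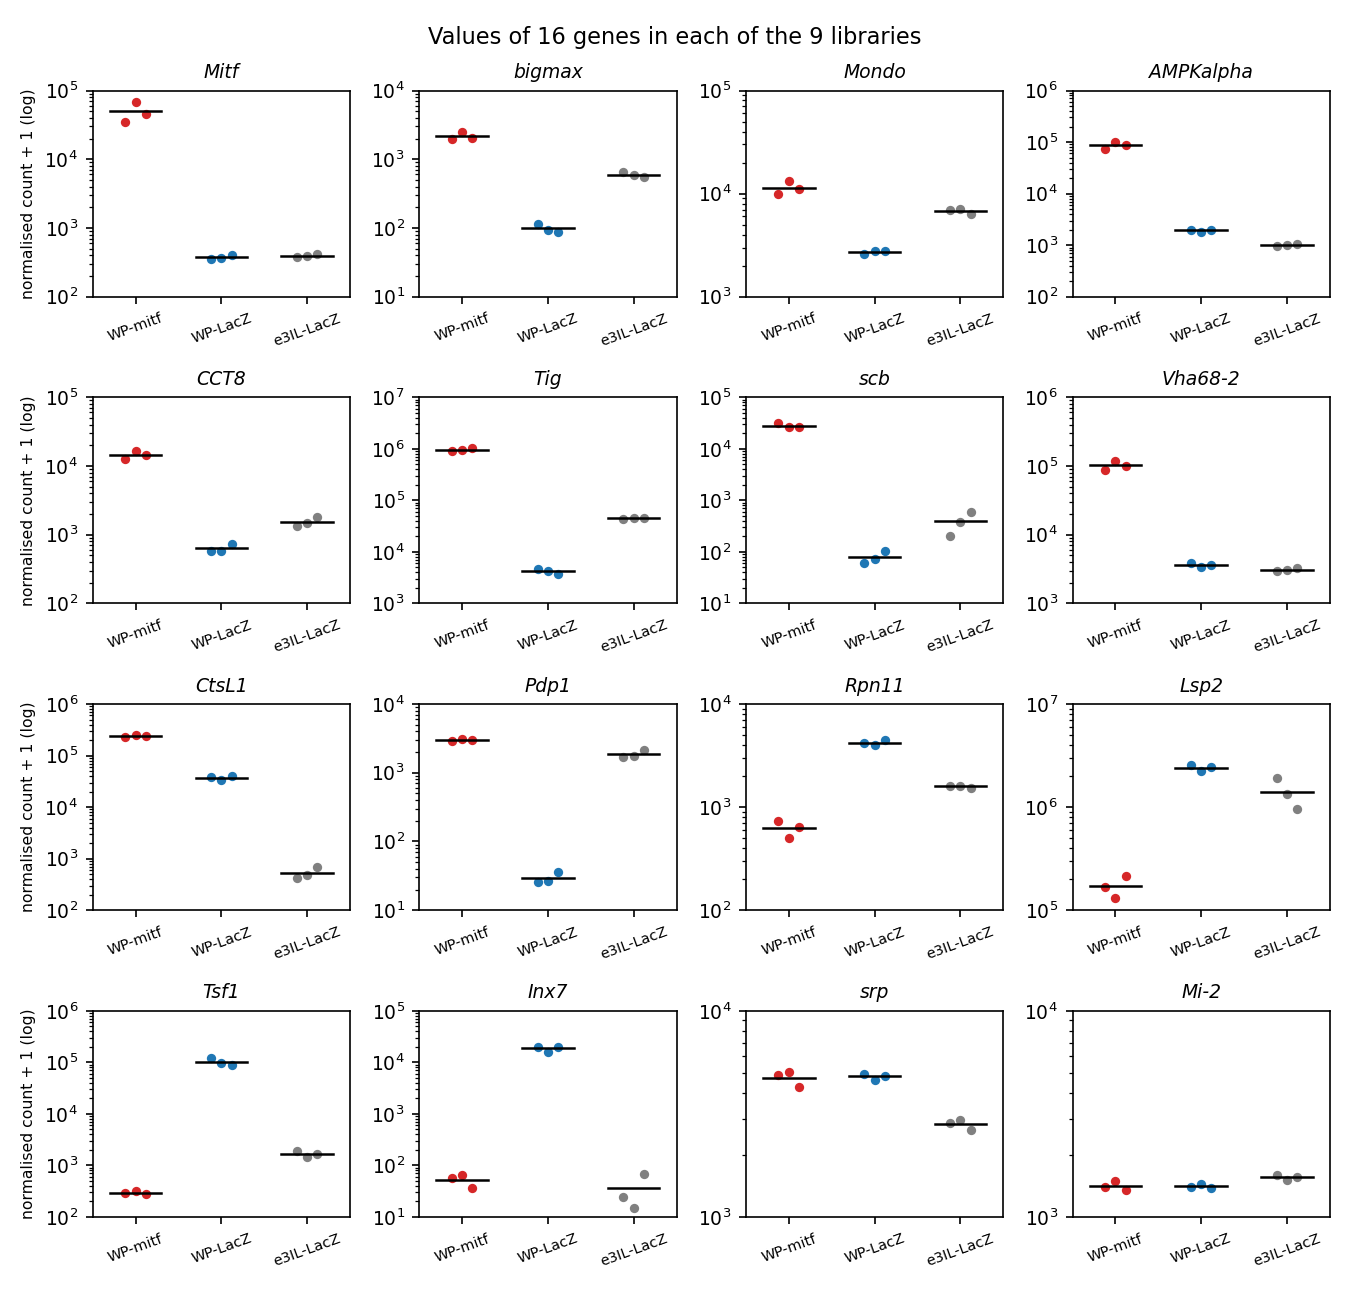
Each panel shows 1 gene, with the normalised read count + 1 of each library on a log axis and a bar at the group mean, for WP-mitf, WP-LacZ and larval e3IL-LacZ libraries. The WP-mitf and WP-LacZ points stand apart in every panel except those of srp and Mi-2.

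Other lysosomal genes went both ways. Of 25 tested hydrolases and their activators, 6 were higher and 12 lower, with a median of -0.46. Of 14 lysosomal membrane proteins and carriers, 5 were higher and 7 lower, and their median, -0.17, turned to 0.26 with library totals. Among the hydrolases, Npc2h, a member of the sterol carrier family of Niemann-Pick type C proteins, had 423, 219 and 519 in the WP-mitf libraries, against 10.9, 6.99 and 2.63 in the WP-LacZ libraries. Ids, the sulfatase that starts the breakdown of dermatan and heparan sulfate, had 87.7, 100.6 and 122 in the WP-mitf libraries, against 22.8, 19.1 and 18.2 in the WP-LacZ libraries, and lost its call with a pseudocount of 0.1. CtsF, a cysteine protease, and Sap-r, which yields the saposins that present lipids to hydrolases, were higher by 1.19 ± 0.09 and 1.13 ± 0.17. Each of these was higher in every WP-mitf library than in any WP-LacZ library, which for Npc2h and Ids was a condition of being picked.

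CtsL1, called higher, had 228271, 251256 and 238935 in the WP-mitf libraries, against 37823, 33948 and 39555 in the WP-LacZ libraries. Summed counts of the hydrolase list were 307451 to 317617 in the WP-mitf libraries and 263003 to 268948 in the WP-LacZ libraries. CtsL1 made up most of the WP-mitf sum. The lower hydrolases also included some with large counts. LManII, a lysosomal alpha-mannosidase, had 4773, 2725 and 3465 in the WP-mitf libraries, against 77202, 73884 and 66576 in the WP-LacZ libraries, a difference of -4.35 ± 0.17. Acph-1, an acid phosphatase long used as a lysosome marker, had 58.99, 63.6 and 58.2 in the WP-mitf libraries, against 950.2, 973 and 1043 in the WP-LacZ libraries, a difference of -4.01 ± 0.12. Both groups stood above the larvae for LManII and on either side of them for Acph-1, since the larvae had 439, 449 and 460.4 counts of LManII and 306, 252 and 298 of Acph-1. Among membrane proteins, Lerp, the receptor that sorts hydrolases to the lysosome, had 444, 221 and 347 in the WP-mitf libraries, against 49.5, 72.1 and 30.5 in the WP-LacZ libraries. Trpml, the lysosomal calcium channel, had 222, 311 and 238 in the WP-mitf libraries, against 790.4, 739 and 804 in the WP-LacZ libraries, and the amino acid transporters path and slif were lower, at -1.92 ± 0.37 and -1.94 ± 0.46. Npc1a, the membrane partner of the NPC2 proteins, was lower, at -1.57 ± 0.09, and so differed from Npc2h in direction.

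Among 27 tested genes for building autophagosomes 11 were called higher and 9 lower, or 40.7% and 33.3%, close to the shares over all genes, and the median of 0.10 turned to -0.14 when the 6 storage and fat body genes were left out of the library totals. Atg4b, a protease that prepares Atg8 for its lipid anchor, had 2231, 3396 and 2496 in the WP-mitf libraries, against 805, 701 and 838 in the WP-LacZ libraries, a difference of 1.77 ± 0.15. Atg5, part of the complex that attaches that anchor, had 106, 125 and 91.7 in the WP-mitf libraries, against 483, 444 and 508 in the WP-LacZ libraries, a difference of -2.15 ± 0.14. Atg101, of the initiating kinase complex, was higher by 1.74 ± 0.17, and Vps15, of the lipid kinase complex, by 1.37 ± 0.20, while Pi3K59F, the kinase that Vps15 binds, was lower, at -1.13 ± 0.20. Subunits of the same complex thus had opposite signs.

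Of 35 genes for fusion of autophagosomes and late endosomes with lysosomes, 14 were called higher and 16 lower, and their median of -0.21 turned to 0.22 with library totals. Rab2, a small GTPase on autophagosomes and Golgi, had 12033, 11850 and 13170 in the WP-mitf libraries, against 2359, 2581 and 2550 in the WP-LacZ libraries, a difference of 2.31 ± 0.08. Rab7, the GTPase of late endosomes, had 27088, 22809 and 24961 in the WP-mitf libraries, against 5631, 5915 and 7136 in the WP-LacZ libraries, a difference of 2.01 ± 0.11, whereas its activators Mon1 and Ccz1 were lower, at -1.26 ± 0.11 and -0.60 ± 0.14. Stam, which gathers ubiquitinated cargo on endosomes, had 13050, 10417 and 10797 in the WP-mitf libraries, against 2660, 2707 and 2989 in the WP-LacZ libraries. Vps25, of the ESCRT-II complex that follows Stam in the same route, had 48.6, 65.3 and 68.3 in the WP-mitf libraries, against 178, 242 and 199.5 in the WP-LacZ libraries. Vps11, a core subunit of the HOPS tether, had 82.9, 96.2 and 61.99 in the WP-mitf libraries, against 203, 268 and 226 in the WP-LacZ libraries, and was lower, at -1.53 ± 0.18, while HOPS subunits Vps39, car and lt were higher by 1.01 ± 0.11, 1.54 ± 0.12 and 0.76 ± 0.12.

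**Figure D4:**
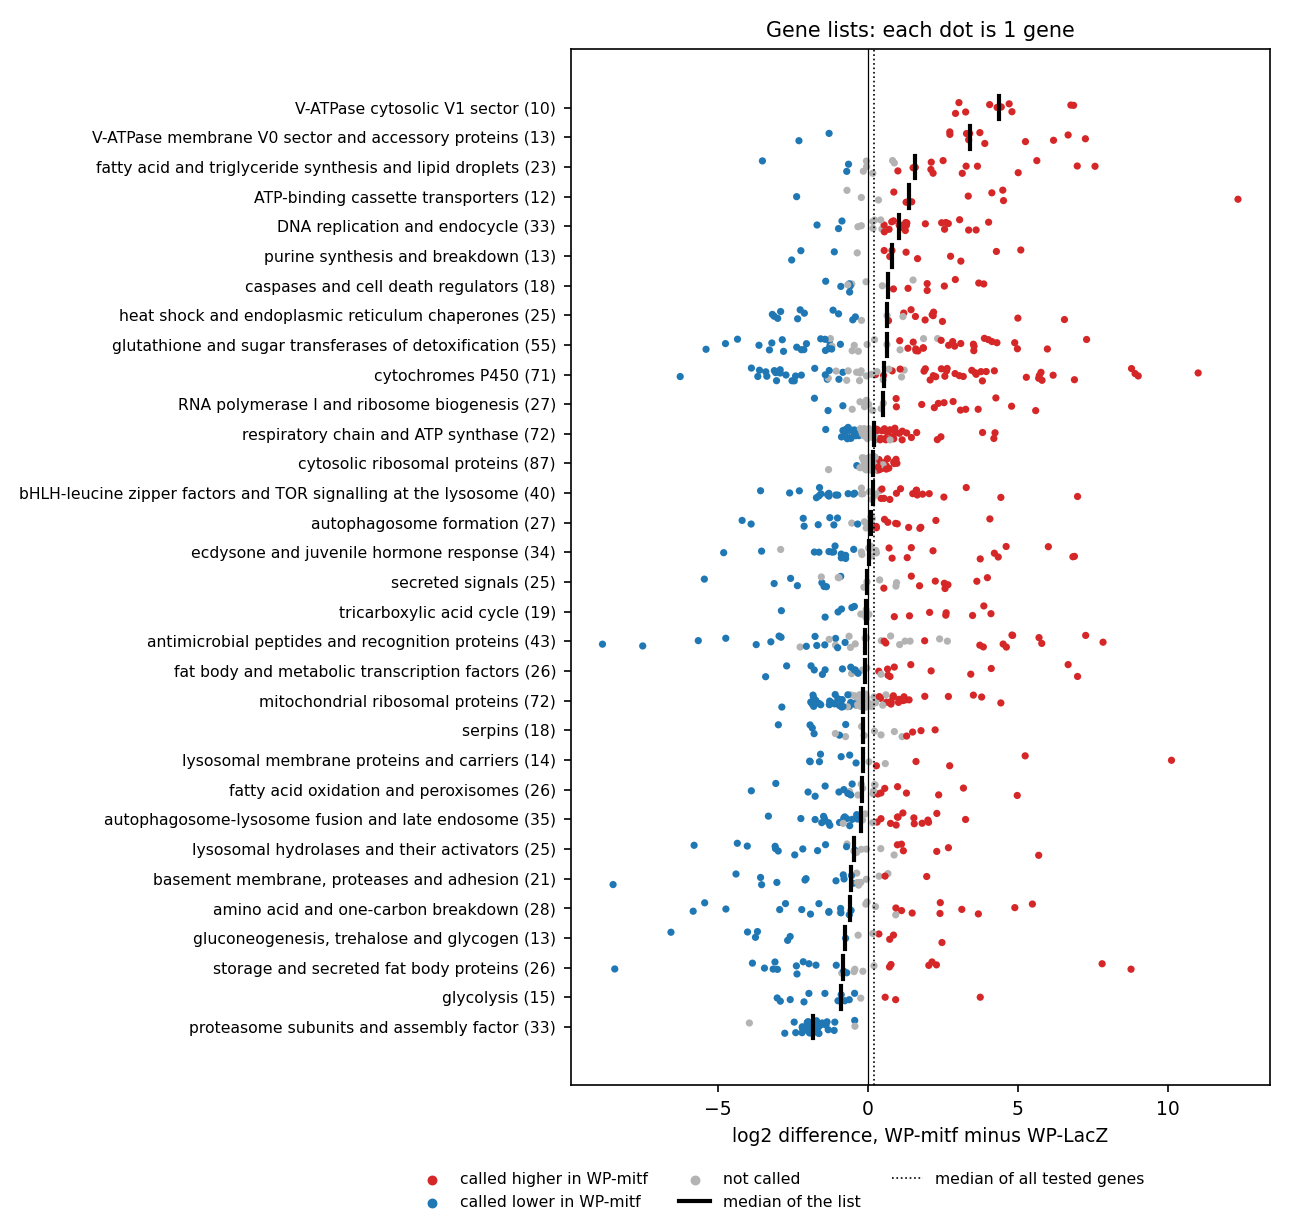
Each dot is 1 tested gene, placed by its log2 difference, WP-mitf minus WP-LacZ, in the row of its list, with the number tested in brackets. Colour marks genes called higher, called lower and not called, the thick bar is the median of the list, and the dotted line is the median of all genes, 0.22.

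Mitf itself, its relatives and the TOR pathway that controls it were examined as a list of 40 genes. Of these, 16 were higher and 15 lower, and Mitf, by whose level the groups were set apart, is 1 of the 16. The median of 0.18 turned to -0.07 without the storage genes in the totals. The transcription factors in the list leaned upward. The gene bigmax codes for the leucine zipper partner of Mondo, a sensor of intracellular sugar. It had 1947, 2485 and 2018 in the WP-mitf libraries, against 114, 92.3 and 87.8 in the WP-LacZ libraries, a difference of 4.44 ± 0.14, with larvae in between at 643, 596 and 556. Mondo itself had 9836, 13178 and 11181 in the WP-mitf libraries, against 2608, 2797 and 2781 in the WP-LacZ libraries, and differed by 2.05 ± 0.12. Max and Mnt, chosen after their values were seen, were higher by 1.62 ± 0.16 and 1.83 ± 0.19, while Myc, which pairs with Max and drives growth, had 161, 94.6 and 162 in the WP-mitf libraries, against 129, 102 and 77.5 in the WP-LacZ libraries and was not called (0.42 ± 0.24). Without WP-mitf library 2, Myc was called at 0.67 (limma, adjusted p = 0.0106), and with library totals at 0.85 (adjusted p = 0.00668).

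Components of the lysosomal TOR machinery differed in sign within complexes. Lamtor1 and Lamtor4 belong to Ragulator, which anchors the Rag GTPases to the lysosome. Lamtor4 had 45.4, 59.2 and 65.9 in the WP-mitf libraries, against 677, 705 and 655 in the WP-LacZ libraries, a difference of -3.57 ± 0.15. Lamtor1 had 120.2, 156 and 122 in the WP-mitf libraries, against 808, 777 and 835 in the WP-LacZ libraries, a difference of -2.60 ± 0.13, and Lamtor2 and Lamtor3 were not called (0.06 ± 0.17 and 0.22 ± 0.11). RagA-B was higher by 2.54 ± 0.14 and RagC-D, its partner in the heterodimer, lower, at -1.34 ± 0.08. The TOR kinase gene mTor, chosen after its values were seen, had 637, 855 and 552 in the WP-mitf libraries, against 1354, 1493 and 1367 in the WP-LacZ libraries, and raptor, the scaffold of complex 1, was lower, at -1.62 ± 0.15.

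The energy sensor AMPK, which opposes TOR and promotes autophagy when ATP is short, was higher in all its parts. AMPKalpha (FBgn0023169, chromosome X, 1375536 to 1378896, plus strand), the catalytic subunit, had counts of 74187, 100258 and 86684 in the WP-mitf libraries, against 2003, 1792 and 1994 in the WP-LacZ libraries, a difference of 5.49 ± 0.12, and larvae had 954, 997 and 1066. The regulatory subunits alc and SNF4Agamma and the upstream kinase Lkb1 were picked after their values were seen. The beta subunit alc had 4740, 4405 and 4337 in the WP-mitf libraries, against 1988, 1693 and 1916 in the WP-LacZ libraries, a difference of 1.27 ± 0.10. For SNF4Agamma, the gamma subunit, the counts were 11539, 10677 and 10702 in the WP-mitf libraries, against 2766, 2757 and 3144 in the WP-LacZ libraries, a difference of 1.93 ± 0.10. Lkb1 had 2129, 908 and 1828 in the WP-mitf libraries, against 207, 205 and 202 in the WP-LacZ libraries, a difference of 2.89 ± 0.27.

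CCT, the chaperonin ring that folds actin and tubulin, was added as a list after values were seen, and all 8 subunit genes were higher, between 0.73 for CCT4 and 4.52 for CCT8, with a median of 3.48. CCT8 had 12782, 16722 and 14219 in the WP-mitf libraries, against 581, 576 and 744 in the WP-LacZ libraries, CCT3 had 11238, 14088 and 12590 in the WP-mitf libraries, against 512, 508 and 735 in the WP-LacZ libraries, and CCT7 had 11678, 14992 and 13046 in the WP-mitf libraries, against 597, 601 and 890.0 in the WP-LacZ libraries. These 3 were higher by more than 4 on the log2 scale. CCT4 stood apart, at 669.8, 899.8 and 638 in the WP-mitf libraries, against 406, 368 and 568 in the WP-LacZ libraries. Larval counts of CCT8, 1341, 1462 and 1798, lay between the prepupa groups.

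The proteasome, which degrades ubiquitinated proteins in the cytosol, was lower in nearly all its genes. Of 33 tested genes, the assembly factor Pomp among them, 31 were lower and 0 higher, with a median of -1.83. Rpn10, the receptor for ubiquitin chains, had 1118, 729.9 and 1004 in the WP-mitf libraries, against 4826, 5073 and 5484 in the WP-LacZ libraries, a difference of -2.45 ± 0.14. Rpn5, a lid subunit, had 1652, 1286 and 1621 in the WP-mitf libraries, against 7712, 7740 and 8487 in the WP-LacZ libraries, and differed by -2.40 ± 0.11. Larvae stood between at 2235, 2114 and 2189 for Rpn5. The 2 not called were Rpn1, at 9624, 4769 and 9429 in the WP-mitf libraries, against 10195, 9553 and 10764 in the WP-LacZ libraries, and Prosalpha1, at 0, 66.03 and 20.04 in the WP-mitf libraries, against 153, 95.8 and 344 in the WP-LacZ libraries, whose counts varied widely within each group.

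Of 25 chaperones of the heat shock response and the endoplasmic reticulum, 11 were called higher and 11 lower. Cytosolic DnaJ-1, an Hsp40 that hands clients to Hsp70, had 2817, 4127 and 3371 in the WP-mitf libraries, against 514, 530.2 and 802 in the WP-LacZ libraries. Hsc70-4, the constitutive cytosolic Hsp70, had 99933, 99480 and 102109 in the WP-mitf libraries, against 25018, 22740 and 33281 in the WP-LacZ libraries, a difference of 1.92 ± 0.22, and Hsp83, the fly Hsp90, was higher by 2.18 ± 0.36. Hsp70Ab was higher by 6.56 ± 1.01, but several Hsp70 genes are nearly identical and WP-LacZ library 3 stood above the other 2 (11.9, 28.1 and 346). The 5 tested chaperones and isomerases of the endoplasmic reticulum lumen, Hsc70-3, Gp93, Calr, Pdi and ERp60, were all lower. Hsc70-3, the fly BiP, had 6595, 2641 and 5493 in the WP-mitf libraries, against 36306, 31967 and 34505 in the WP-LacZ libraries, a difference of -2.90 ± 0.28. Of the others, the disulfide isomerase ERp60 had 2442, 1375 and 2134 in the WP-mitf libraries, against 19140, 16343 and 17034 in the WP-LacZ libraries, and Atf6, a sensor of unfolded protein in the endoplasmic reticulum, had 192, 218 and 143 in the WP-mitf libraries, against 1504, 1715 and 1548 in the WP-LacZ libraries. The small heat shock gene Hsp23, which ecdysone induces, was lower too, with 25019, 39449 and 25283 in the WP-mitf libraries, against 226218, 232252 and 243875 in the WP-LacZ libraries, although larvae had only 15.8, 9.04 and 13.03 counts.

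Storage and secreted proteins were higher for 7 and lower for 14 of 26, with a median of -0.83. Lsp1beta, a subunit of the larval hexamer, had 34335, 16650 and 48444 in the WP-mitf libraries, against 280545, 240526 and 253856 in the WP-LacZ libraries, and larvae had 4101874, 3816897 and 3247336. Of the lipid carriers, Apoltp was not called (-0.46 ± 0.22). The gene apolpp, for the apolipoprotein of the main haemolymph carrier, had 88665, 44915 and 77745 in the WP-mitf libraries, against 257760, 265383 and 265722 in the WP-LacZ libraries, a difference of -1.96 ± 0.27. Mtp, which loads lipid onto it, had 524, 423 and 497 in the WP-mitf libraries, against 4407, 4307 and 4092 in the WP-LacZ libraries, a difference of -3.15 ± 0.09. Idgf2, a chitinase-like growth factor, had 463, 309.8 and 450.4 in the WP-mitf libraries, against 4172, 4607 and 4348 in the WP-LacZ libraries. Obp99b, of the odorant-binding protein family, had 64768, 71179 and 74250 in the WP-mitf libraries, against 408193, 386955 and 342657 in the WP-LacZ libraries, a loss of counts that was among the 8 largest of any gene. The called genes among these had groups that did not overlap, which for Idgf2 was a condition of being picked.

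Among the 7 higher genes were the 3 yolk proteins, which are made by adult female fat body and ovary. Yp2 had 5663, 1580 and 4726 in the WP-mitf libraries, against 4.59, 5.14 and 13.5 in the WP-LacZ libraries, a difference of 8.78 ± 0.49, and Yp1 had 907, 152 and 843 in the WP-mitf libraries, against 1.85, 2.59 and 0 in the WP-LacZ libraries, a difference of 7.82 ± 0.74. Yp3 had 2153, 1523 and 2107 in the WP-mitf libraries, against 435, 360.5 and 373 in the WP-LacZ libraries, and larvae, at 15888, 11934 and 10966, exceeded both. WP-mitf library 2 was the lowest of its group for all 3 yolk genes.

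Tig took the largest gain in counts of any gene, and it is an extracellular matrix protein. Tig (FBgn0011722, chromosome 2L, 6415179 to 6423310, minus strand) codes for tiggrin, a ligand of integrins made by fat body and hemocytes. Its counts were 898538, 961591 and 1016065 in the WP-mitf libraries, against 4737, 4205 and 3712 in the WP-LacZ libraries, a difference of 7.83 ± 0.14, and larvae had 44359, 45313 and 45483. Tig held 5.02%, 5.59% and 5.59% of the summed count of the WP-mitf libraries, against 0.0198%, 0.0178% and 0.0152% in the WP-LacZ libraries. The integrin alpha subunit gene scb, chosen after its values were seen, had 30993, 26352 and 26776 in the WP-mitf libraries, against 58.7, 70.7 and 102 in the WP-LacZ libraries, a difference of 8.52 ± 0.34. The gene if, for the alpha subunit that binds tiggrin, had 165, 158 and 146 in the WP-mitf libraries, against 90.1, 94.8 and 132 in the WP-LacZ libraries, a difference of 0.58 ± 0.15 that lost its call with the storage genes left out of the totals. The beta subunit mys (0.38 ± 0.16, adjusted p = 0.051) and alpha subunit mew (-0.30 ± 0.16) were not called. Without WP-LacZ library 3, mys was called at 0.57 (limma, adjusted p = 0.00205), and without WP-mitf library 2 at 0.47 (adjusted p = 0.0292). It was also called with library totals, at 0.81 (adjusted p = 0.00118), and, at 0.38, with a pseudocount of 5 (adjusted p = 0.0492) and with a filter of 10 counts (adjusted p = 0.0485). With the storage genes left out of the totals, mew was called lower, at -0.55 (adjusted p = 0.00868).

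Genes of the matrix, its proteases and cell contacts were lower for 12 and higher for 2 of 21, with a median of -0.54, and with library totals lower for 8 and higher for 4. Ndg, for nidogen, which links laminin to collagen IV in basement membranes, had 205, 175 and 170.4 in the WP-mitf libraries, against 4266, 3570 and 3777 in the WP-LacZ libraries, a difference of -4.39 ± 0.23. Besides the integrin gene if, the higher gene was LanB2, a laminin chain, with 14324, 11927 and 12467 in the WP-mitf libraries, against 3414, 3086 and 3372 in the WP-LacZ libraries, while the chains LanB1 and LanA differed by -0.04 ± 0.14, not called, and -0.79 ± 0.14. The collagen IV chains Col4a1 and vkg overlapped between groups and were not called (0.68 ± 0.28 and -0.37 ± 0.25). The matrix metalloproteases, by which the fat body dissociates at metamorphosis, were both lower. Mmp1 had 2684, 1900 and 2188 in the WP-mitf libraries, against 9428, 8145 and 11219 in the WP-LacZ libraries, and Mmp2 had 265, 394 and 261 in the WP-mitf libraries, against 3331, 3395 and 4085 in the WP-LacZ libraries, while the larvae had 21.4, 28.9 and 42.8 counts of Mmp1 and 6.51, 1.47 and 6.68 of Mmp2. Both proteases thus stood above the larvae in each prepupa group. The cell adhesion gene shg, for E-cadherin, had 224, 265 and 205 in the WP-mitf libraries, against 2544, 2555 and 2960 in the WP-LacZ libraries, and Inx2, a gap junction protein, had 557, 614 and 634 in the WP-mitf libraries, against 5385, 3847 and 5704 in the WP-LacZ libraries.

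By number of genes called, though not by summed count, lipid genes leaned upward on the synthetic side. Of 23 tested genes of fatty acid and triglyceride synthesis and lipid droplets, 14 were higher and 3 lower, with a median of 1.59, and with library totals 18 and 1. Agpat2, which adds the second fatty acid on the way to triglyceride, had 5031, 3262 and 5141 in the WP-mitf libraries, against 21.8, 19.04 and 25.4 in the WP-LacZ libraries, a difference of 7.58 ± 0.18, and larvae matched the WP-mitf libraries at 4809, 5047 and 5722. Seipin, which shapes lipid droplets where they bud from the endoplasmic reticulum, had 6495, 10532 and 7350 in the WP-mitf libraries, against 137, 153 and 189.6 in the WP-LacZ libraries, a difference of 5.64 ± 0.19. FASN1 and ATPCL stood far below the larvae in both prepupa groups. FASN1, fatty acid synthase, had 11139, 4514 and 8929 in the WP-mitf libraries, against 609.9, 563 and 644 in the WP-LacZ libraries, and larvae had 538097, 504303 and 562340. ATPCL, which supplies its acetyl-CoA, had 5204, 5664 and 4970 in the WP-mitf libraries, against 485, 602 and 542 in the WP-LacZ libraries, against 138416, 140914 and 173880 in larvae. The lipase bmm was also higher, at 3736, 1252 and 2798 in the WP-mitf libraries, against 465, 686 and 512 in the WP-LacZ libraries. Gpat4, which adds the first fatty acid, had 762, 747 and 777 in the WP-mitf libraries, against 1163, 1222 and 1176 in the WP-LacZ libraries, a difference of -0.64 ± 0.08 that lost its call with library totals. Lsd-1, also of this list, had 5625, 3268 and 3875 in the WP-mitf libraries, against 50457, 44436 and 47014 in the WP-LacZ libraries, a difference of -3.51 ± 0.19. Summed counts of the list overlapped, at 68908 to 109772 in the WP-mitf libraries and 69291 to 77984 in the WP-LacZ libraries.

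Of 26 fatty acid oxidation and peroxisome genes, 8 were called higher and 10 lower, and their median of -0.19 turned to 0.24 with library totals, which gave 12 higher and 6 lower. Acox57D-d, a peroxisomal acyl-CoA oxidase, had 2565, 2358 and 2719 in the WP-mitf libraries, against 84.97, 81.6 and 71.7 in the WP-LacZ libraries, a difference of 4.99 ± 0.10. Pex14, of the import pore of peroxisomes, had 2007, 1249 and 1921 in the WP-mitf libraries, against 200.1, 179 and 173 in the WP-LacZ libraries. Catalase, Cat, which removes the hydrogen peroxide such oxidases make, had 3600, 1701 and 2564 in the WP-mitf libraries, against 20622, 22631 and 19707 in the WP-LacZ libraries, and Had1, a hydroxyacyl-CoA dehydrogenase, had 39.6, 40.5 and 43.8 in the WP-mitf libraries, against 628, 685 and 558 in the WP-LacZ libraries. Acox57D-d in larvae, 2363, 2382 and 2251, was close to the WP-mitf libraries.

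Of 15 glycolysis genes 11 were lower and 3 higher, with a median of -0.88. With library totals 7 were lower and 3 higher, with a median of -0.45. Of 13 genes of gluconeogenesis, trehalose and glycogen 7 were lower and 4 higher. Gapdh2, glyceraldehyde-3-phosphate dehydrogenase, had 1274, 1386 and 1487 in the WP-mitf libraries, against 11918, 10734 and 10912 in the WP-LacZ libraries, and larvae had 55855, 60772 and 61164. Hex-C, the hexokinase of the fat body, had 95.7, 79.5 and 116 in the WP-mitf libraries, against 709, 889 and 612 in the WP-LacZ libraries. Eno, enolase, was higher at 17151, 16461 and 20240 in the WP-mitf libraries, against 9595, 9732 and 8812 in the WP-LacZ libraries. The trehalose transporter Tret1-1 had 476, 74.02 and 285 in the WP-mitf libraries, against 3078, 3781 and 3652 in the WP-LacZ libraries, and UGP, which makes the UDP-glucose for trehalose and glycogen, had 391, 281 and 359 in the WP-mitf libraries, against 4733, 4720 and 4268 in the WP-LacZ libraries. Of these 5 genes enolase alone was higher. Treh, trehalase, was higher at 1815, 2168 and 1836 in the WP-mitf libraries, against 377.0, 363 and 304 in the WP-LacZ libraries, a difference of 2.48 ± 0.12. Glycogen phosphorylase Glyp and glycogen synthase Glys were not called (0.17 ± 0.20 and -0.32 ± 0.16).

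Genes of the tricarboxylic acid cycle differed in sign between steps. Of 19 tested, 8 were higher and 6 lower, and the median of -0.04 turned to 0.39 with library totals. Ogdh, of the oxoglutarate dehydrogenase complex, had 28627, 28580 and 32417 in the WP-mitf libraries, against 1890, 1596 and 1699 in the WP-LacZ libraries, a difference of 4.11 ± 0.14. Idh3a, a subunit of the NAD-dependent isocitrate dehydrogenase one step before it, had 23404, 28182 and 28229 in the WP-mitf libraries, against 1986, 1621 and 1834 in the WP-LacZ libraries, a difference of 3.87 ± 0.14, and its partner subunits Idh3b and Idh3g were higher by 1.39 ± 0.11 and 0.89 ± 0.11. The NADP-dependent enzyme Idh was lower, at 455, 441 and 422 in the WP-mitf libraries, against 3521, 3083 and 3121 in the WP-LacZ libraries. The NAD- and NADP-dependent forms thus differed in direction. Past Ogdh in the cycle, SdhA had 348, 321 and 406 in the WP-mitf libraries, against 711, 609 and 646 in the WP-LacZ libraries, and Fum1 had 494, 417 and 568 in the WP-mitf libraries, against 1405, 1540 and 1038 in the WP-LacZ libraries.

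Respiratory chain and ATP synthase genes were higher for 29 and lower for 16 of 72, with a median of 0.20. The scale set this count, since library totals gave 45 higher and 3 lower with a median of 0.62, and totals without the storage genes gave 23 higher and 22 lower with a median of -0.05. ND-B14, of complex I, had 4449, 3829 and 4860 in the WP-mitf libraries, against 317, 314 and 285 in the WP-LacZ libraries, and cytochrome c, Cyt-c-p, had 862, 499 and 846 in the WP-mitf libraries, against 116, 128 and 151 in the WP-LacZ libraries, although larvae had 10264, 12663 and 20089. UQCR-11, of complex III, was lower at 186, 203 and 225 in the WP-mitf libraries, against 479.8, 640.1 and 513 in the WP-LacZ libraries. Mitochondrial ribosomal protein genes were higher for 20 and lower for 24 of 72, with a median of -0.14. Library totals gave 25 higher and 12 lower with a median of 0.29, and totals without the storage genes gave 17 higher and 34 lower. Among them mRpS25 had 1283, 1336 and 1315 in the WP-mitf libraries, against 56.6, 59.3 and 62.5 in the WP-LacZ libraries, and mRpL36 had 40.6, 17.7 and 31.1 in the WP-mitf libraries, against 227, 239 and 174 in the WP-LacZ libraries.

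Amino acid and one-carbon genes contained some of the widest contrasts in metabolism. Of 28 tested, 9 were higher and 14 lower, with a median of -0.58. Sam-S, which makes the methyl donor S-adenosylmethionine, had 29675, 25941 and 28962 in the WP-mitf libraries, against 578, 663 and 635 in the WP-LacZ libraries, a difference of 5.49 ± 0.11. Gnmt, which uses that donor on glycine in the fat body, was higher by 3.69 ± 0.21, and Ahcy, which clears the product, by 1.48 ± 0.20. The folate enzymes that supply one-carbon units were lower. The gene pug, for the cytosolic trifunctional folate enzyme, had 528, 346 and 778 in the WP-mitf libraries, against 29708, 33152 and 26128 in the WP-LacZ libraries, a difference of -5.82 ± 0.24, and Shmt, serine hydroxymethyltransferase, was lower, at -4.73 ± 0.19. Gs2, a glutamine synthetase, had 8798, 7281 and 6946 in the WP-mitf libraries, against 257, 261 and 243 in the WP-LacZ libraries, and Oat, ornithine aminotransferase, had 524, 513 and 565 in the WP-mitf libraries, against 22568, 28079 and 19480 in the WP-LacZ libraries.

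Purine genes were higher for 9 and lower for 3 of 13, with a median of 0.81. Prat, the committing step of purine synthesis, had 1131, 1832 and 1255 in the WP-mitf libraries, against 72.2, 70.1 and 65.6 in the WP-LacZ libraries, a difference of 4.29 ± 0.23. Paics and Adsl, which act further along the same route, had the opposite sign. Paics had 11853, 8275 and 9125 in the WP-mitf libraries, against 58566, 58557 and 50701 in the WP-LacZ libraries, and Adsl had 1100, 1376 and 1061 in the WP-mitf libraries, against 5482, 6157 and 4900 in the WP-LacZ libraries. The gene ry, xanthine dehydrogenase, which makes urate, had 6030, 8191 and 7412 in the WP-mitf libraries, against 182, 243 and 200.3 in the WP-LacZ libraries, a difference of 5.11 ± 0.16. Aprt, which salvages adenine, and bur, which makes guanosine monophosphate, were higher by 3.11 ± 0.13 and 2.76 ± 0.10.

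Hormone genes differed in both directions, with 12 higher and 13 lower of 34 and a median of 0.05 that turned to -0.18 without the storage genes in the totals. On the ecdysone side, shd, the cytochrome P450 that makes the active 20-hydroxyecdysone, had 642, 455 and 493 in the WP-mitf libraries, against 12.5, 28.01 and 23.99 in the WP-LacZ libraries. Hr38, a nuclear receptor that also pairs with the ecdysone receptor's partner usp, had 166, 129 and 154 in the WP-mitf libraries, against 0, 0 and 1.23 in the WP-LacZ libraries, and usp was lower, at -0.74 ± 0.12. Hr3, an early-late receptor of the ecdysone cascade, had 415, 697 and 469 in the WP-mitf libraries, against 1545, 1771 and 2005 in the WP-LacZ libraries, a difference of -1.78 ± 0.46, although the larvae had 3.56, 0 and 0.999. Hr3 lost its call with a pseudocount of 0.1. Neither Eip75B nor ftz-f1 was called (-0.19 ± 0.12 and 0.07 ± 0.23). On the juvenile hormone side, Jhe, the esterase that inactivates the hormone, had 165, 109.8 and 110.4 in the WP-mitf libraries, against 0, 6.43 and 0 in the WP-LacZ libraries. Jheh3, an epoxide hydrolase for it, had 50.2, 38.9 and 67.9 in the WP-mitf libraries, against 1615, 1417 and 1331 in the WP-LacZ libraries, a difference of -4.80 ± 0.26, while Jheh1 was higher by 2.18 ± 0.11. The juvenile hormone target Kr-h1 was lower, at -1.20 ± 0.13.

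Genes for making ribosomes were called higher or not called, with few exceptions. Ribosome biogenesis and RNA polymerase I genes were higher for 13 and lower for 3 of 27, with a median of 0.52. Polr1A, the largest subunit of RNA polymerase I, had 2087, 3129 and 2482 in the WP-mitf libraries, against 74.9, 108 and 89.8 in the WP-LacZ libraries, a difference of 4.80 ± 0.22. Fib, fibrillarin, which methylates ribosomal RNA, had 2160, 1437 and 2265 in the WP-mitf libraries, against 95.9, 106 and 92.5 in the WP-LacZ libraries. Tif-IA, the initiation factor that recruits polymerase I, was lower at 66.2, 70.6 and 41.8 in the WP-mitf libraries, against 193, 195 and 216 in the WP-LacZ libraries. Cytosolic ribosomal proteins were higher for 30 and lower for 1 of 87, with a median of 0.18, and RpL41 had the largest rise among them, 0.97 ± 0.11. That result depends on the scale, since library totals gave 79 higher and 0 lower, and totals without the storage genes gave 9 higher, 13 lower and a median of -0.06. RpL3 had 54852, 47981 and 59954 in the WP-mitf libraries, against 29439, 27973 and 26860 in the WP-LacZ libraries. The elongation factor eEF1alpha1 was lower, at 144616, 130053 and 162857 in the WP-mitf libraries, against 301588, 271604 and 299307 in the WP-LacZ libraries.

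DNA replication and endocycle genes were higher for 23 and lower for 3 of 33, with a median of 1.05, and without the storage genes in the totals higher for 18 and lower for 5. Larval fat body cells grow by endocycles, in which DNA is copied without mitosis. Orc5, of the origin recognition complex, had 197, 294 and 204 in the WP-mitf libraries, against 16.4, 17.9 and 7.30 in the WP-LacZ libraries, a difference of 4.03 ± 0.32. The licensing inhibitor geminin had 1224, 1559 and 1235 in the WP-mitf libraries, against 121, 110.3 and 93.96 in the WP-LacZ libraries, a difference of 3.62 ± 0.15. Both were picked on condition that the groups did not overlap. RnrS, of the enzyme that makes deoxynucleotides, had 1925, 4290 and 2623 in the WP-mitf libraries, against 309, 362 and 328 in the WP-LacZ libraries, and dpa, a subunit of the MCM helicase, had 995, 1231 and 952 in the WP-mitf libraries, against 171, 176 and 168 in the WP-LacZ libraries. The activator fzr, which removes mitotic cyclins in endocycling cells, had 810.0, 554 and 632 in the WP-mitf libraries, against 59.99, 78.95 and 52.2 in the WP-LacZ libraries. The mitotic genes CycB and Cdk1 had the opposite sign, CycB at 98.9, 90.1 and 103 in the WP-mitf libraries, against 201, 215 and 163 in the WP-LacZ libraries and Cdk1 lower, at -0.86 ± 0.24.

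Immune genes had no single direction, with 13 higher and 15 lower of 43 and a median of -0.09 that turned to 0.30 with library totals. Of 7 tested Bomanins, secreted immune peptides counted together after their values were seen, 5 were called higher and 0 lower, among them BomS4 at 294, 158 and 261 counts in the WP-mitf libraries and 0 in the WP-LacZ libraries. PGRP-LD, a peptidoglycan recognition family member, had 8406, 8533 and 9623 in the WP-mitf libraries, against 56.9, 35.9 and 87.2 in the WP-LacZ libraries, a difference of 7.27 ± 0.27. Mtk, an antifungal peptide, had 21.4, 1.76 and 42.5 in the WP-mitf libraries, against 1936, 1486 and 5564 in the WP-LacZ libraries, and Drs, for drosomycin, was lower, at -5.65 ± 0.26. The 4 tested Cecropins were higher by 3.74 to 4.81, but lie side by side and are alike in sequence. Serpins, which restrain the proteases of such cascades, were higher for 4 and lower for 6 of 18, with a median that turned from -0.16 to 0.26 with library totals. Spn43Ab had 3346, 3116 and 4190 in the WP-mitf libraries, against 770.2, 643 and 818 in the WP-LacZ libraries, and Spn88Eb had 323, 379.7 and 373 in the WP-mitf libraries, against 2788, 2717 and 2977 in the WP-LacZ libraries.

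Of detoxification families, cytochromes P450 were higher for 34 and lower for 22 of 71, or 47.9% and 31.0%, with a median of 0.53. Glutathione and sugar transferases were higher for 24 and lower for 20 of 55, or 43.6% and 36.4%, with a median of 0.64. Both families thus stood near the shares over all genes. Cyp305a1 had 2410, 1468 and 2521 counts in the WP-mitf libraries and was listed at 0 in the WP-LacZ libraries. Cyp6d2 had 195, 213 and 208 in the WP-mitf libraries, against 2401, 2861 and 2600 in the WP-LacZ libraries, and Ugt36D1, a sugar transferase, had 819.7, 325 and 356 in the WP-mitf libraries, against 12596, 11837 and 12289 in the WP-LacZ libraries. ATP-binding cassette transporters were higher for 8 and lower for 1 of 12, with a median of 1.37. Atet had 3683, 3800 and 3823 in the WP-mitf libraries, against 106, 138 and 290.1 in the WP-LacZ libraries, Mrp4 had 4708, 3465 and 4197 in the WP-mitf libraries, against 176, 204 and 160.2 in the WP-LacZ libraries, and Mrp5 had 3566, 1687 and 4862 in the WP-mitf libraries, against 165, 161 and 197 in the WP-LacZ libraries. Mdr49 was the 1 called lower, at 605, 392 and 459.9 in the WP-mitf libraries, against 2466, 2569 and 2385 in the WP-LacZ libraries.

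Cell death genes were higher for 8 and lower for 5 of 18, with a median of 0.67, and with library totals higher for 10 and lower for 1. The gene hid, which frees caspases from their inhibitor, had 563.6, 497 and 438 in the WP-mitf libraries, against 32.4, 37.02 and 42.99 in the WP-LacZ libraries, a difference of 3.70 ± 0.25. Decay, an effector caspase, had 1243, 1091 and 1430 in the WP-mitf libraries, against 221, 173 and 114.6 in the WP-LacZ libraries. The tumour necrosis factor egr had 8864, 9405 and 8293 in the WP-mitf libraries, against 1477, 1308 and 1756 in the WP-LacZ libraries, a difference of 2.56 ± 0.11. The caspase inhibitor Diap1 had 2015, 1903 and 1751 in the WP-mitf libraries, against 2760, 2844 and 3059 in the WP-LacZ libraries, a difference of -0.61 ± 0.09 that lost its call with library totals. Dredd, a caspase of the immune pathway, was lower at 154, 145 and 147 in the WP-mitf libraries, against 378, 422 and 383 in the WP-LacZ libraries, and rpr was not called, at 6.38, 0.885 and 3.73 in the WP-mitf libraries, against 1.83, 0 and 0 in the WP-LacZ libraries.

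Signals by which organs address each other went both ways. Of 25 secreted signals, 9 were higher and 8 lower, and the median of -0.02 turned to 0.41 with library totals. Gbp1, a growth-blocking peptide by which fat body reports amino acids to the brain, had 578, 373 and 483 in the WP-mitf libraries, against 4078, 4064 and 4140 in the WP-LacZ libraries, a difference of -3.12 ± 0.15. CCHa2, a nutrient-dependent peptide that promotes insulin release, had 962, 739 and 1007 in the WP-mitf libraries, against 5066, 5734 and 5179 in the WP-LacZ libraries, and Ilp6, the insulin-like peptide of the fat body, had 4039, 2139 and 3676 in the WP-mitf libraries, against 15078, 16400 and 16812 in the WP-LacZ libraries. ImpL2, which binds and blocks insulin-like peptides, was higher at 920.3, 519.8 and 937 in the WP-mitf libraries, against 228, 316 and 300.4 in the WP-LacZ libraries. The fat body peptides and their insulin-blocking counterpart thus differed in direction. Pvf3, a growth factor of the VEGF family, had 310.1, 122 and 329.6 in the WP-mitf libraries, against 40.3, 45.7 and 29.8 in the WP-LacZ libraries.

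Of 26 transcription factors of the fat body and of metabolism, 11 were called higher and 11 lower. Mitf, by whose level the groups were set apart, is counted among the higher ones. The median of -0.10 turned to 0.33 with library totals, which gave 13 higher and 7 lower. Pdp1, a clock factor that also promotes growth in fat body, had 2902, 3046 and 3035 in the WP-mitf libraries, against 25.1, 25.5 and 34.7 in the WP-LacZ libraries, a difference of 6.68 ± 0.14, and larvae had 1719, 1736 and 2157. Its clock relative vri was higher by 2.12 ± 0.31, whereas cyc, the partner of Clk, had 30.3, 30.9 and 18.6 in the WP-mitf libraries, against 267, 310.4 and 277 in the WP-LacZ libraries, a difference of -3.40 ± 0.27, and Clk was not called (-0.54 ± 0.51). Hnf4, which governs lipid breakdown, was higher by 1.44 ± 0.10. The homeotic gene Antp had 153, 234 and 187 in the WP-mitf libraries, against 765, 633 and 716 in the WP-LacZ libraries, and abd-A was lower, at -1.78 ± 0.09, while Dfd was higher by 4.12 ± 0.52.

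Beyond these lists, the largest rises and falls were sought among abundant genes whose symbol is not only a CG or CR number. Rises included FipoQ, an F-box protein, with 5244, 7782 and 5283 in the WP-mitf libraries, against 1.83, 0 and 1.22 in the WP-LacZ libraries. Another was brv3, a TRP family channel, with 5833, 6776 and 6734 in the WP-mitf libraries, against 2.71, 0 and 1.25 in the WP-LacZ libraries. The chloride channel gene tty had 24291, 31118 and 30219 in the WP-mitf libraries, against 10.1, 10.2 and 11.5 in the WP-LacZ libraries, a difference of 11.26 ± 0.37. The largest falls included Nt5a, a nucleotidase, with 51.7, 50.5 and 52.7 in the WP-mitf libraries, against 13435, 13803 and 11803 in the WP-LacZ libraries, a difference of -7.95 ± 0.09. CtsL3, a cathepsin L relative, had 17.99, 33.97 and 25.1 in the WP-mitf libraries, against 5844, 5802 and 4950 in the WP-LacZ libraries, a difference of -7.74 ± 0.31, and so stood opposite to CtsL1. The lipid phosphatase gene laza had 55.02, 23.8 and 44.8 in the WP-mitf libraries, against 5340, 3261 and 5960 in the WP-LacZ libraries. That the groups did not overlap was a condition for picking these 6 genes.

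Some genes held the same level to within a narrow interval. Among genes with at least 1000 counts in both groups, the 6 whose 95% interval reached least far from 0 were Mi-2, Pp2A-29B, sau, Sara, Paip1 and for. Mi-2, a chromatin remodeller, had 1392, 1499 and 1348 in the WP-mitf libraries, against 1391, 1446 and 1387 in the WP-LacZ libraries, a log2 difference with an interval of -0.17 to 0.18. Pp2A-29B, the scaffold of protein phosphatase 2A, had 2426, 2684 and 2466 in the WP-mitf libraries, against 2449, 2481 and 2572 in the WP-LacZ libraries, with an interval of -0.16 to 0.19. For the other 4 genes no bound lay farther from 0 than -0.22, the lower bound of the kinase gene for. These 6 are equal on the deposited scale only, since another scale shifts them with all genes.

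The WP-mitf libraries varied among themselves in a pattern that recurred in some gene groups and not in others. Library 2, which had the highest Mitf count, was the lowest of its group for 31 of 31 lower proteasome genes and 13 of 14 lower storage genes, against 36.6% of all 3200 lower genes. It was the highest of its group for 20 of 23 higher replication genes, 8 of 8 CCT genes and 7 of 10 V1 genes, against 43.7% of all 4166 higher genes. For V0 genes it was the highest for 5 of 11, or 45.5%, near that share. It was the highest for 4 of 16 higher genes of the Mitf and TOR list and 3 of 14 of the fusion list. It was the highest for only 2 of 30 higher ribosomal protein genes and 2 of 29 higher respiratory chain genes. The median proteasome gene stood 0.31 below the mean of the 3 libraries in library 2 on the log2 scale, and 0.22 and 0.11 above it in libraries 1 and 3. For replication genes library 2 stood 0.35 above the mean and libraries 1 and 3 stood 0.24 and 0.07 below it. With 3 libraries no relation to the Mitf level can be tested.

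**Figure D5:**
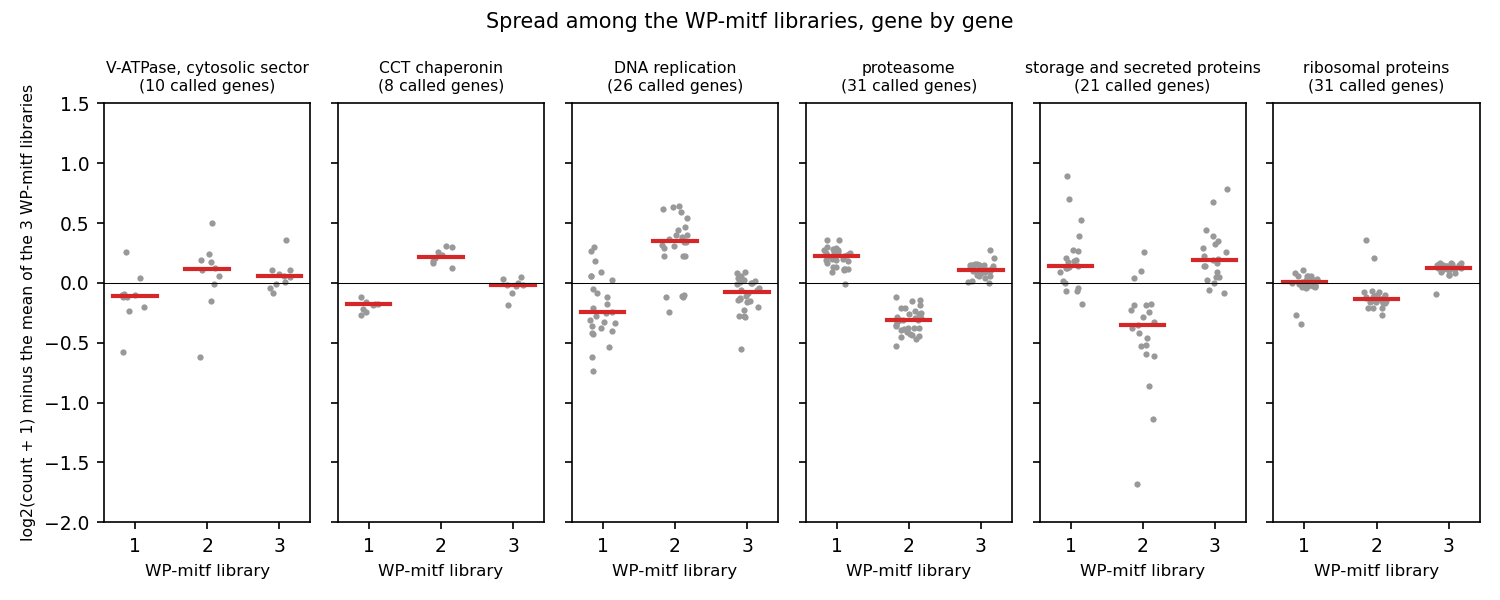
Each panel shows the called genes of 1 group, each dot a gene in 1 of the 3 WP-mitf libraries, as log2(count + 1) minus that gene's mean over the 3, with a bar at the median. In library 2 the median is -0.31 for the proteasome and -0.35 for storage and secreted proteins, and 0.35 for DNA replication and 0.22 for the CCT chaperonin.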

How the data were processed

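Fat body messenger RNA was sequenced from stranded poly(A) libraries, per the labels' protocols. Per the submitters' processing notes, the authors used bcl2fastq, Salmon 1.5.2, DESeq2 and the build BDGP6. The deposited signal is 1 normalised read count per gene and library, with 10242 genes. Symbols and positions came from an Ensembl annotation of BDGP6 for 10189 of them. Values were not whole reads, so no count model was used. The 103 genes below the filter of at least 1 in at least 3 libraries were left out.

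All 9 libraries, 3 per group, entered 1 fit in limma 3.58.1 (R 4.3.3) on log2(value + 1) with a mean-variance trend and 1 coefficient per group. Two-sided p-values of all 10139 genes were adjusted together after Benjamini and Hochberg, and "called" means an adjusted p below 0.05. Differences carry the SE of that fit. No difference is given for a gene at 0 in all libraries of 1 group. The fit was also tested on simulated data.

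The comparison, the 42 gene lists and the rules for naming genes were chosen with earlier results of these data known. Of the entries in the lists 1106 were tested and 91 were not among the genes of the tables. The rules picked Mitf and up to 3 called genes each way per main list, or 2 per other list. List genes needed non-overlapping groups and a higher mean of at least 100. Also picked were the 10 largest rises and falls with non-overlapping groups and a higher mean of at least 1000. The 8 largest gains and losses in counts and the 6 most equal genes were added. Genes without a name of their own, such as those with only a CG or CR number, were left out of these rankings. List members were kept among the gains and losses. Not all genes so picked are described above, so a gene described for a list need not be among its largest changes. Other genes were named after their values were seen. Alternatives tried were other pseudocounts, filters, scalings, fits, the replicate block and each library left out. Replicate numbers were not taken to pair the libraries.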

Additional observations from a re-analysis of the deposited data

How the results depend on the processing

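Counts of higher and lower genes stayed within 1.5 times of the reported count under the 19 alternatives run. This holds for all tested genes, the V-ATPase sectors, the proteasome and the storage list. Library shares were recomputed only with each of the 6 prepupa libraries left out. For the 6 storage and fat body genes and the 10 most abundant genes, the difference in share between groups moved by less than 1 SD. The V-ATPase share was not recomputed. Leaving out 1 library at a time gave 3600 to 4181 higher and 3003 to 3230 lower genes. With library totals, 67.9% of calls were higher, against 56.6% as deposited and 50.1% (3733 higher, 3718 lower) when the 6 storage and fat body genes were left out of the totals. That last scale was chosen after seeing the data. It moved the median of all genes by -0.23, library totals by 0.41 and trimmed mean scaling by -0.02. Replicate numbers were not taken to pair the libraries, since no deviations of same-numbered libraries correlated above 0.1 (-0.0653 to 0.0888). In the other direction, 11 of 18 comparisons had the own number as the best match, a hint from the data and not from the design. A fit with the replicate block gave 4133 higher and 3167 lower genes. It turned no direction among the 194 genes followed one by one, but called mys at 0.38 (limma, adjusted p = 0.0197).

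Single genes were followed under the alternatives for 194 genes, those picked by the naming rules and the sets added after values were seen. Other genes described above were not followed one by one. Of 3680 repeats over the 194 genes, 3652 kept direction and call, 7 lost the call, 14 gained one and 7 reversed. Most of these genes were picked for large differences, so keeping the call was largely set beforehand. The count does not speak for other called genes. Library totals put RpS14b at 0.07, Sara at 0.43, and Paip1, for and sau each at 0.42 (log2). Totals without the storage genes put Mi-2 at -0.24 and Pp2A-29B at -0.23. These are shifts of the scale itself. The promoter motif comparison and its alternatives were not run, since no genome sequence was used here. Low counts limit the weakest genes, of which 53.9% with a mean under 10 were not called, against 19.5% with a mean of 100 to 1000. Calls were also uneven by level. With a mean under 10, 39.7% were higher and 6.46% lower, with a median log2 difference of 0.94. With a mean of 100 to 1000, 38.3% were higher and 42.2% lower, with a median of -0.09.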

Other observations

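Genes of the small chromosome 4, which is packaged by its own chromatin system and holds Mitf itself, were more often lower than higher. Of its 77 tested genes 10 were higher and 38 lower in the WP-mitf libraries, or 13.0% and 49.4%, with a median log2 difference of -0.49. The 5 large arms had 39.0% to 45.6% higher and 29.5% to 33.8% lower. With library totals the count was 19 higher and 31 lower, and without the storage genes in the totals 8 higher and 42 lower. PIP4K, a lipid kinase gene on that chromosome, had 148, 194 and 132 in the WP-mitf libraries, against 1095, 1350 and 1221 in the WP-LacZ libraries, a difference of -2.95 ± 0.15, and Dyrk3, a protein kinase gene, had 335, 482 and 369 in the WP-mitf libraries, against 1560, 1688 and 1743 in the WP-LacZ libraries. Both were picked after their values were seen.

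Some neighbouring genes differed together. Runs of at least 5 adjacent tested genes, all called in the same direction by at least 2 on the log2 scale, numbered 26 for higher genes and 1 for lower genes. Of all 10139 tested genes, 2301 were called higher and 945 lower by at least that much, so higher genes were also the more common at large. The run lengths reached 8. One of the longest lay on chromosome arm 3R and included Vha55, and a run of 5 on 2R included Vha16-1 at 3.90 ± 0.11. A run of 6 on 2R included Mdr50 and the mitochondrial chaperone gene Hsc70-5, which was higher by 2.15 ± 0.21. The single lower run lay on 3R and ended with mfas. A run of 7 on 3R held the 4 Cecropins and 3 other genes, and a run of 7 on 2R held 6 trypsin genes and CG13202. Copies alike in sequence may share reads. How many such runs chance would give was not tested.

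The larval mean was counted as between the prepupa groups also where it equalled the mean of either. Among genes higher by at least 1 on the log2 scale, it lay between for 1641, below both for 1318 and above both for 447. Among genes lower by that much it lay between for 906, below both for 616 and above both for 684. Over all 10242 genes, 250 were above 0 in every WP-mitf library and at 0 in all WP-LacZ libraries and all larvae. Some of these, such as Vha68-3, are also among the higher genes just counted as between, though their larval and WP-LacZ counts were both 0.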
